A study of Mus musculus with 8 samples.

Results

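Tendon and myotendinous junction genes were followed in the tibialis anterior (TA) muscle of old mice, with or without the gene for fast myosin binding protein-C. The 9 genes, *Tnmd*, *Scx*, *Mkx*, *Comp*, *Thbs4*, *Chad*, *Cilp2*, *Prg4* and *Chodl*, were taken by symbol from the 16686 usable genes of the table, and 8 of them had enough reads to be tested. They were chosen as a readout of how much tendon each dissected muscle carried, and whether their RNA tracks that amount was not tested. RNA-seq libraries were made from whole TA, a fast-twitch muscle of the front of the lower leg, with one library per mouse. The 4 WT mice and the 4 C2-/- mice were male, aged 22 months and of the FVBN background, with no treatment named for either group. In C2-/- mice, most exons of *Mybpc2* are replaced by a neomycin cassette flanked by LoxP sites, an allele that is neither muscle-specific nor induced.

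Tendon is built by tenocytes, fibroblast-like cells that lay down parallel fibrils of type I collagen. The transcription factors Scleraxis (*Scx*) and Mohawk (*Mkx*) drive this programme, and tenomodulin (*Tnmd*), a membrane glycoprotein, is among the most specific markers of mature tenocytes. At the myotendinous junction, muscle fibres end in folds that are anchored to tendon matrix, and thrombospondin-4 is among the matrix proteins that hold this junction together. TA ends in a long tendon and is covered by connective tissue, both of which can be taken along when the muscle is cut out.

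*Tnmd* (gene ID 64103, chrX:133851008-133865577), *Chad* (12643, chr11:94565074-94569127), *Thbs4* (21828, chr13:92751586-92794818) and *Cilp2* (68709, chr8:69880366-69887392) went together across the mice, as did *Comp* (coordinates on build GRCm38.p6). The 250 bases before their RefSeq starts are shown because Scleraxis binds E-boxes, which read CANNTG on both strands. The sequences are from RefSeq and lie at chrX:133850758-133851007 (plus strand), chr11:94564797-94565046 (plus strand), chr13:92794819-92795068 (minus strand) and chr8:69887393-69887642 (minus strand). They run 5′ to 3′ towards the start, with each E-box in capitals.
Tnmd: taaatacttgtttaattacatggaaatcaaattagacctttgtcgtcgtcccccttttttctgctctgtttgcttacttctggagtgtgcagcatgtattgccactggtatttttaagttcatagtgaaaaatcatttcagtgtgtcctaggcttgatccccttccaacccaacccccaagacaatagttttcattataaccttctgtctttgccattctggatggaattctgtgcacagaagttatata
Chad: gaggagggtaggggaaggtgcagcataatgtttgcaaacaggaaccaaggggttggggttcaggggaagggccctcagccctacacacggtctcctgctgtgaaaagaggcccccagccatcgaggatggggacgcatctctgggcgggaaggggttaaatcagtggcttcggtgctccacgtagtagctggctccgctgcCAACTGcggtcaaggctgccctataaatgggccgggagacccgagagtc
Thbs4: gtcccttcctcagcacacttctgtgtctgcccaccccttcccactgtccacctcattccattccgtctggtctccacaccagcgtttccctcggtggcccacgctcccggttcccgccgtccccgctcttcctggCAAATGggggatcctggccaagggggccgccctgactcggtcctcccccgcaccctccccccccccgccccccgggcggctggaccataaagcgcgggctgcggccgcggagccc
Cilp2: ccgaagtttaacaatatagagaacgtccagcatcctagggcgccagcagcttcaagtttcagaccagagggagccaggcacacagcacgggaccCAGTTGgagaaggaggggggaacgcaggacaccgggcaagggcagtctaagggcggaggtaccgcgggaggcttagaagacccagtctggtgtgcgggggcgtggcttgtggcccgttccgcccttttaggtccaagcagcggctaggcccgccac
An E-box was found in 3 of these 4 windows and none in that of *Tnmd*, and 66.2% of the 32851 windows of the same length before RefSeq starts hold at least 1. *Chodl* had 4, which 3.84% of the windows reach or exceed. Such a match is a run of letters and not a site, and its absence says only that these letters are not in the window.

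Total counts of a mouse lay between 25425993 and 29747692, and the level of 3 counts corresponded to 0.104 to 0.116 CPM (read counts relative to the library total, with TMM factors). The targeted gene *Mybpc2* had 4963, 5448, 5099 and 7389 CPM in WT replicates 1, 2, 3 and 4 and 4.35, 4.02, 38.3 and 3.85 CPM in C2-/- replicates 1, 2, 3 and 4, so that each library matched its label. Genes of fast muscle fibres summed to at least 200000 CPM in every mouse. The 9 members summed to 59.2, 52.1, 131 and 77.0 CPM in WT replicates 1 to 4 and to 79.4, 172, 238 and 180 CPM in C2-/- replicates 1 to 4, which is between 0.00521% and 0.0238% of a library. In a bulk sample, fewer tendon cells and less of their RNA per cell cannot be told apart.

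Among the markers and factors of tenocytes, *Tnmd* varied over 14.4-fold across the 8 mice. It measured 0.463, 0.219, 1.46 and 1.12 CPM in WT replicates 1, 2, 3 and 4 and 1.14, 3.16, 1.38 and 3.12 CPM in C2-/- replicates 1, 2, 3 and 4. WT replicates 1 and 2 were below all other mice, C2-/- replicates 2 and 4 were above them, and the remaining 4 mice of both genotypes lay together between 1.12 and 1.46 CPM. These levels rest on few reads, from 6 counts in WT replicate 2 to 90 in C2-/- replicate 4. The genotypes differed by 1.43 on the log2 scale for *Tnmd* (standard error 0.55), and its adjusted p was 0.882 in the quasi-likelihood test of edgeR (Benjamini-Hochberg over all tested genes).

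*Scx* (gene ID 20289, chr15:76457092-76459468) did not share this order of mice. Its CPM was 13.8, 12.9, 6.76 and 10.2 in WT and 10.9, 14.1, 8.37 and 6.58 in C2-/-, by replicate. The highest mouse, C2-/- replicate 2, was followed by WT replicates 1 and 2, which were the lowest for *Tnmd*. *Scx* had a fitted difference of −0.13 on the log2 scale (standard error 0.27, edgeR adjusted p = 0.987), whose sign turned without WT replicate 1 (0.0027) and without C2-/- replicate 4 (0.026). In GENCODE, *Scx* lies wholly inside *Bop1* on the other strand, with 0 exonic bases in common. *Bop1* was steady, between 35.9 and 43.0 CPM, and because the counting is not stated to use strand, reads from unspliced *Bop1* RNA cannot be told apart from those of *Scx*. *Mkx* (gene ID 210719) had between 4 and 12 counts per mouse and did not pass the filter. It measured 0.154, 0.255, 0.336 and 0.362 CPM in WT and 0.189, 0.372, 0.426 and 0.243 CPM in C2-/-, and at this depth no difference was detectable (log2 fold change 0.15, standard error 0.52, edgeR adjusted p = 0.977 without a filter).

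RNA of *Thbs4*, *Comp*, *Chad* and *Cilp2* followed that of *Tnmd* closely, with a Pearson r of 0.968, 0.928, 0.972 and 0.961. This did not hold for *Prg4*, whose r was 0.573. For the transcription factors r was −0.47 (*Scx*) and 0.427 (*Mkx*). *Mkx* had few counts and reads of *Scx* may include *Bop1*, so matrix genes and transcription factors were not compared as classes. *Thbs4*, the thrombospondin of tendon and of the myotendinous junction, was the best counted member, with 732 to 2254 counts. It measured 34.2, 26.7, 66.0 and 44.1 CPM in WT and 43.9, 81.4, 49.9 and 78.1 CPM in C2-/- replicates 1 to 4. WT replicates 1 and 2 were again lowest and C2-/- replicates 2 and 4 highest, while WT replicate 3 was above C2-/- replicates 1 and 3. Between genotypes *Thbs4* differed by 0.57 on the log2 scale (standard error 0.29, edgeR adjusted p = 0.968). *Comp* (gene ID 12845, chr8:70373548-70382066), the cartilage oligomeric matrix protein of the same family, measured 0.386, 0.438, 5.60 and 3.26 CPM in WT and 1.36, 9.15, 4.01 and 6.41 CPM in C2-/-. Within WT alone the highest mouse had 14.5 times the level of the lowest, against a ratio of 2.16 between genotypes. For *Comp* the log2 fold change was 1.11 (standard error 0.78, edgeR adjusted p = 0.968).

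*Chad*, chondroadherin, a leucine-rich repeat protein that binds collagen and integrins, showed the widest range of the 9 genes. It measured 1.35, 1.02, 18.4 and 8.21 CPM in WT and 7.49, 28.0, 9.36 and 28.0 CPM in C2-/-. The 8 mice stood in exactly the order of *Thbs4*, from WT replicate 2 at the bottom to C2-/- replicate 2 at the top. WT differed 18.0-fold within itself, and the fold between genotypes was 2.51 (log2 fold change 1.33, standard error 0.80, edgeR adjusted p = 0.968). In GENCODE, *Chad* lies inside *Acsf2* on the other strand with 0 shared exonic bases, and *Acsf2* stayed between 2.93 and 5.28 CPM, above *Chad* only in WT replicates 1 and 2.

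*Cilp2*, a matrix protein named after the intermediate layer of cartilage, measured 0.231, 0.219, 1.38 and 1.77 CPM in WT and 1.36, 3.57, 2.16 and 4.61 CPM in C2-/-. WT replicates 1 and 2 had 6 counts each and stood clear of the other 6 mice, among which the genotypes overlapped between 1.36 and 1.77 CPM. Its difference was 1.69 on the log2 scale (standard error 0.64, edgeR adjusted p = 0.857). *Prg4* (gene ID 96875, chr1:150449412-150466221) encodes lubricin, which lining cells of joints and tendon sheaths secrete to let surfaces glide. It measured 8.21, 9.74, 29.7 and 6.88 CPM in WT and 12.8, 30.2, 161 and 50.9 CPM in C2-/-. C2-/- replicate 3 held 4545 of these reads, far above all other mice, although 3 other mice had more *Tnmd*. *Prg4* had the smallest p of the members (log2 fold change 2.23, standard error 0.73, adjusted p = 0.758 from edgeR), and without C2-/- replicate 3 the log2 fold change was 1.20. The end of *Prg4* overlaps that of *Tpr* on the other strand, with 204 shared exonic bases of 4280.

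*Chodl* (gene ID 246048, chr16:78930863-78951730), chondrolectin, a membrane protein with a lectin domain, measured 0.386, 0.547, 1.34 and 1.09 CPM in WT and 0.303, 2.23, 0.851 and 2.11 CPM in C2-/-. The lowest mouse was C2-/- replicate 1, with 8 counts, below WT replicates 1 and 2. *Chodl* differed by 0.71 on the log2 scale (standard error 0.59, edgeR adjusted p = 0.968).

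**Figure D1:**
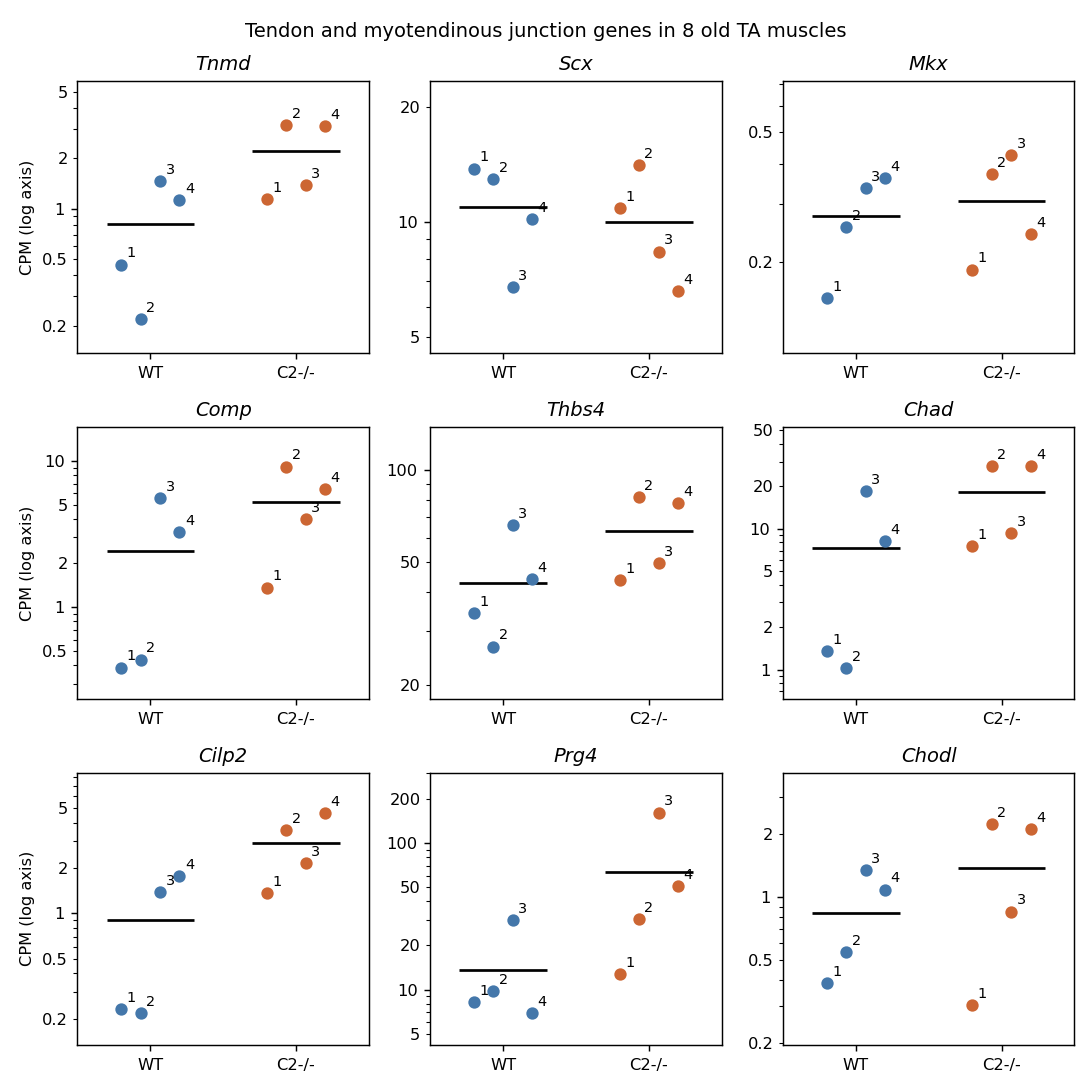
CPM of each of the 9 genes on a log axis of its own, with one point per mouse, the replicate number beside it and the group mean as a line (4 WT, 4 C2-/-). The genotypes overlap for every gene, and the points of WT 1 and WT 2 sit lowest for Tnmd, Comp, Thbs4, Chad and Cilp2.

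Per kilobase of transcript, *Thbs4* had the highest level in both genotypes, 13.4 CPM per kb in WT and 19.8 in C2-/-. In WT it was followed by *Scx* with 10.5 ± 3.07 CPM per kb (SD, n = 4) and, well below, *Chad* with 4.31, *Prg4* with 3.20 and then *Comp*. *Tnmd* stood at 0.602 ± 0.423 (SD, n = 4), ahead of *Chodl*, *Cilp2* and *Mkx* with 0.332, 0.209 and 0.0758 CPM per kb. In C2-/- *Prg4* came next with 15.0 CPM per kb, ahead of *Chad* with 10.8 and *Scx* with 9.65. In WT, neighbours in this order differed by less than the larger of their SDs, except for *Scx* and *Chad*. Reads from unspliced *Bop1* RNA cannot be told apart from those of *Scx*, which limits its place in the order. *Comp*, *Tnmd*, *Chodl*, *Cilp2* and *Mkx* were below the median of 3.87 CPM per kb over all tested genes in both genotypes.

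The question of the comparison between genotypes was how aged fast muscle differs without the protein. None of the 9 genes separated the genotypes, and of all tested genes 3.38% did. Of the 8 tested members, 0 passed an adjusted p of 0.05 above 1.5-fold in edgeR's quasi-likelihood test, in limma-voom and in DESeq2, where edgeR called 0.0319% of all genes, 0.0239% as higher in C2-/-. An unadjusted p under 0.05 was reached by *Prg4*, *Cilp2* and *Tnmd*, 3 of 8, all higher in C2-/-, against 5.29% of all tested genes at this p in either direction and 3.38% among the higher ones. *Chad* was added with limma-voom. A higher mean in C2-/- was found for 7 of 8, against 45.8% of all tested genes, with a median log2 fold change of 1.22 against −0.02. Above 1.5-fold, with no test, 6 of 8 were higher (all but *Thbs4* and *Scx*), against 4.3% of all tested genes. Most of these members, *Scx* and *Prg4* excepted, went together from mouse to mouse, so that their counts are not separate pieces of evidence.

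Single mice decided how many members passed. Without WT replicate 3, which had more of *Tnmd*, *Comp*, *Thbs4*, *Chad*, *Prg4* and *Chodl* than the other WT mice, 6 of 8 had an unadjusted p under 0.05 (*Prg4*, *Thbs4*, *Comp*, *Tnmd*, *Cilp2* and *Chad*), and over all genes the count at this p was also larger, 983 of 12682 against 663 of 12542 with all mice. Without WT replicate 1, C2-/- replicate 2 or C2-/- replicate 4, only *Prg4* did, and without C2-/- replicate 3 only *Tnmd* and *Cilp2* did. Over all genes the count was 693, 586, 506 and 564 in these fits, in the same sequence. The smallest edgeR, limma or DESeq2 adjusted p of any member under any alternative was 0.336.

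**Figure D2:**
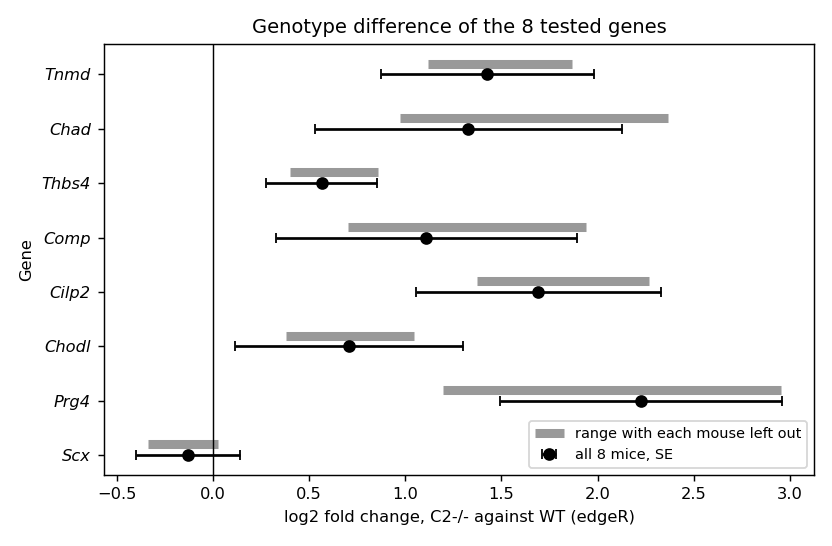
Log2 fold change of C2-/- against WT for the 8 tested genes (points, bars are the standard error from edgeR) and the range of the value when each mouse is left out in turn (grey). Scx lies at −0.13 and Prg4 at 2.23, and of the grey ranges that of Scx alone reaches across 0.

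The order of the mice was the plainest feature of the data. WT replicates 1 and 2 were the lowest 2 mice in 5 of the 9 genes and C2-/- replicates 2 and 4 the highest 2 in 6, and both held for *Tnmd*, *Comp*, *Thbs4*, *Chad* and *Cilp2*. This pattern was picked after it had been seen, and 0.638% of all tested genes show it. C2-/- replicate 1 came next in rank after them for *Thbs4*, *Chad*, *Comp* and *Cilp2*, though at a level nearer to that of WT replicate 4 for *Thbs4* and *Chad*, and WT replicate 3 came next below C2-/- replicates 2 and 4 for *Tnmd*, *Thbs4*, *Chad* and *Comp*. Log2 CPM, centred on each gene's mean, was averaged over the 8 tested members, with *Scx* and without *Mkx*. It was −1.36, −1.47, 0.46 and −0.09 in WT and −0.38, 1.18, 0.56 and 1.10 in C2-/- replicates 1 to 4.

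Spread within a genotype was large for these genes. The SD of log2 CPM around the genotype means had a median of 1.08 over the tested members, against 0.261 over all tested genes and 0.425 over the 3888 tested genes with a mean under 5 CPM. *Chad* (1.57), *Comp* (1.55), *Prg4* (1.27) and *Cilp2* (1.14) varied most, and *Thbs4* (0.506) and *Scx* (0.467) least among those tested. In *Tnmd*, *Comp*, *Thbs4*, *Chad* and *Cilp2* the SD was larger in WT than in C2-/-, as for *Chad* with 1.97 against 1.01, and in *Prg4* and *Chodl* it was larger in C2-/-, a difference that was not tested. The median SD over all tested genes was likewise larger in WT, 0.282 against 0.201.

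**Figure D3:**
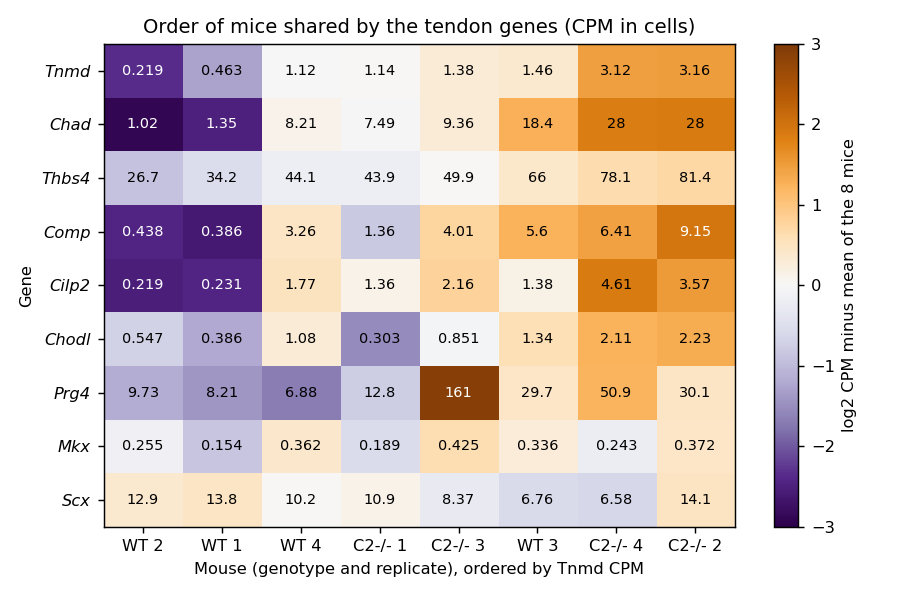
The 9 genes (rows) in the 8 mice (columns, ordered from low to high Tnmd), with CPM written in each cell and colour for log2 CPM minus the gene's mean over the mice. The upper 5 rows run from purple (low) in WT 2 and WT 1 to orange (high) in C2-/- 4 and C2-/- 2, whereas Prg4 peaks at 161 CPM in C2-/- 3 and Scx follows another order.

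Against *Tnmd*, the relation of each other tested member was computed over the 8 mice, 7 relations in all, on log2 CPM with a prior count of 2. *Thbs4* had a Pearson r of 0.968 and a Spearman rho of 0.976 (exact permutation p = 4.96e-05 and 0.000397, adjusted over the 7 relations 0.00026 and 0.00139). *Chad* had 0.972 and 0.976 (exact permutation p = 7.44e-05 and 0.000397, adjusted 0.00026 and 0.00139). For *Comp* the values were 0.928 and 0.952 (exact permutation p = 0.000422 and 0.00114, adjusted 0.000985 and 0.00266), and for *Cilp2* 0.961 and 0.857 (exact permutation p = 0.000769 and 0.0107, adjusted 0.00135 and 0.0187). Without WT replicates 1 and 2, the mice farthest from the median of *Tnmd*, r was still 0.929 for *Thbs4*, 0.928 for *Chad*, 0.915 for *Cilp2* and 0.794 for *Comp*. Within genotypes, after the genotype means had been taken off, it was 0.966, 0.965, 0.927 and 0.923.

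*Chodl* was related to *Tnmd* more loosely, with r = 0.76 and rho = 0.786 (exact permutation p = 0.0255 and 0.0279, adjusted 0.0357 and 0.0391) and r = 0.797 without WT replicates 1 and 2. *Prg4* had r = 0.573 and rho = 0.738 (exact permutation p = 0.138 and 0.0458, adjusted 0.161 and 0.0534), and 0.234 for r within genotypes. *Scx* had r = −0.47 and rho = −0.286 (exact permutation p = 0.24 and 0.501), and 0.0299 for r without WT replicates 1 and 2. *Thbs4*, *Chad*, *Comp*, *Cilp2* and *Chodl* thus went with *Tnmd* from mouse to mouse, and for *Prg4*, *Scx* and the sparsely counted *Mkx* this was not shown.

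When all 12541 other tested genes were ranked by their r with *Tnmd*, *Chad* was at rank 1, *Thbs4* at rank 3, *Cilp2* at rank 6, *Comp* at rank 29 and *Chodl* at rank 705. *Prg4* was at rank 2121 and *Scx* at rank 9559. The 5 nearest genes outside the members were *Col12a1* (r = 0.972), a collagen of the fibril surface that is abundant in tendon, *Uaca* (0.963), *Fndc1* (0.963), *Ddr2* (0.952), a receptor tyrosine kinase for fibrillar collagen, and *Tmem127* (0.948), given as a description over 8 mice with no test. *Col12a1* measured 0.655, 0.255, 3.14 and 1.27 CPM in WT and 1.10, 5.69, 2.16 and 4.37 CPM in C2-/-, the same order of the 8 mice as for *Chad* and *Thbs4*.

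Among the 125 genes nearest to *Tnmd*, 1% of those tested, were 4 members, 5 of 19 other tendon cell and matrix genes (*Fmod*, *Prelp*, *Kera*, *Abi3bp* and *Thbs3*) and 2 of 9 tendon collagens (*Col12a1* and *Col1a2*). One of 19 genes of the muscle side of the junction was there as well, *Itga7*, the integrin chain that ties fibres to laminin, and 1 of 9 genes of fibro-adipogenic progenitors, *Cd248*. *Fmod*, fibromodulin, a proteoglycan that guides collagen fibril assembly, showed the range of the members with 15.8, 17.9, 95.2 and 56.1 CPM in WT and 33.6, 125, 60.4 and 147 CPM in C2-/-. WT replicates 1 and 2 were lowest for it too, and only C2-/- replicates 2 and 4 were above WT replicate 3. Lists of tendon-forming signals, cartilage, bone, synovial lining, blood, adipocytes, endothelium, macrophages, Schwann cells, mural cells, satellite cells and muscle fibres had 0 genes among the 125. By Spearman's rho in place of r, the 1% held 3 members and 6 other tendon matrix genes, and within genotypes it held 4 members and 1 such gene. Tendon collagens numbered 1 by rho and 1 within genotypes, and genes of the muscle side of the junction 2 and 0. The fibro-adipogenic list had 0 in both.

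**Figure D4:**
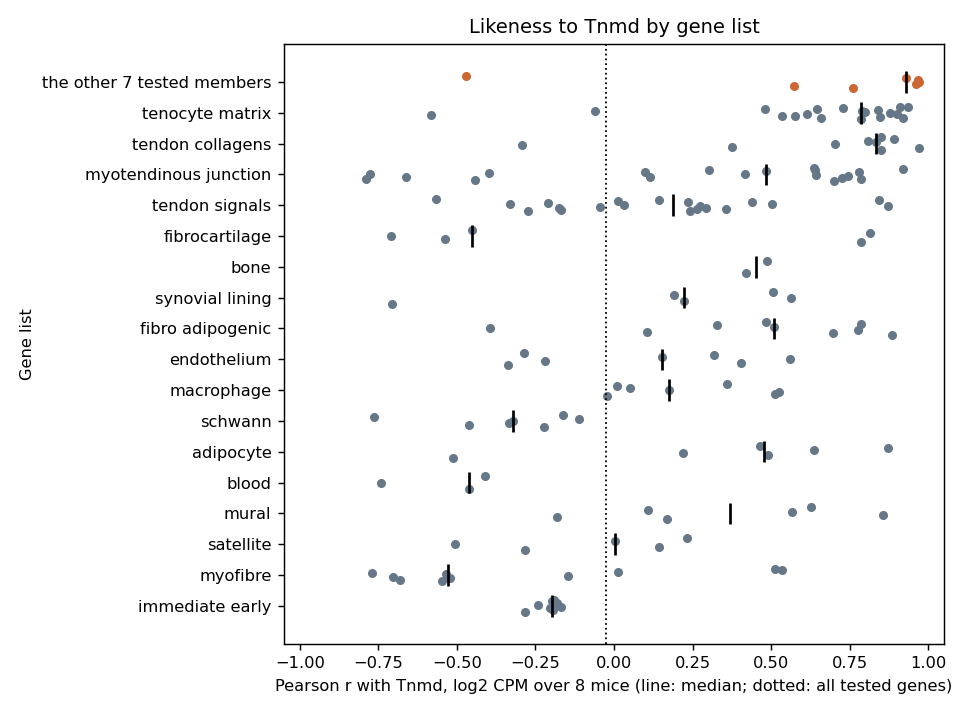
Pearson r of each tested list gene with Tnmd over the 8 mice (points), with the list's median (line) and the median of all tested genes (dotted). The medians are 0.928 for the members, 0.833 for tendon collagens and 0.787 for other tenocyte matrix genes, against −0.0245 for all tested genes.

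Other genes listed for tendon stood as follows between the genotypes, beside the 5.29% of all tested genes with an unadjusted p under 0.05. Their r with *Tnmd* ran from −0.584 to 0.936 for tenocyte matrix genes and from −0.293 to 0.972 for tendon collagens. Whether they report tendon alone or other fibroblast-like cells as well was not tested. Of 19 tested tenocyte matrix genes, 17 had a higher mean in C2-/- and 8 reached this p, all higher, with a median log2 fold change of 0.61. Among them were *Prelp*, a matrix proteoglycan (0.61, standard error 0.17, edgeR adjusted p = 0.63), and *Thbs2*, a thrombospondin (0.88, standard error 0.28, edgeR adjusted p = 0.755). The lower genes were *Fibin* (−1.36) and *Thbs1* (−0.57), with an edgeR adjusted p of 0.968 and 0.976. *Fibin* was high in WT replicate 2 alone, with 36.9 CPM against at most 7.28 CPM in any other mouse. All 9 tendon collagens had a higher mean, 5 with p under 0.05. The smallest p belonged to 2 chains of type V collagen, which starts fibrils, *Col5a2* (0.93, standard error 0.22, edgeR adjusted p = 0.571) and *Col5a1* (0.77, standard error 0.20, edgeR adjusted p = 0.608), while *Col3a1*, *Col12a1*, *Col1a1* and *Col1a2* had larger log2 fold changes of 1.38, 1.32, 1.30 and 1.12.

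On the muscle side of the junction, 14 of 19 genes were higher and 3 reached p under 0.05. *Col13a1*, a transmembrane collagen of the junction and the synapse, differed by 1.52 on the log2 scale (standard error 0.43, edgeR adjusted p = 0.638). Its levels were low, 0.193, 0.182, 0.373 and 0.651 CPM in WT and 1.17, 0.781, 0.993 and 1.11 CPM in C2-/-. *Nes*, an intermediate filament, differed by 0.60 (standard error 0.22, edgeR adjusted p = 0.849). *Col22a1*, the collagen that defines this junction, measured 3.62, 11.3, 10.1 and 13.0 CPM in WT and 10.1, 15.5, 16.4 and 25 CPM in C2-/-. *Col22a1* was the third gene of this list at that p (log2 fold change 0.82, standard error 0.37, unadjusted p = 0.0488 from edgeR). Of the list, 0 genes passed an adjusted p of 0.05. WT replicate 1 was lowest for *Col22a1* and C2-/- replicate 4 highest, whereas WT replicate 2, among the lowest for *Tnmd*, was in the middle. Of 20 tested ligands, receptors and factors of tendon formation, 10 were higher and 10 lower, with a median log2 fold change of 0.01, and 1 reached p under 0.05, *Etv4*, a transcription factor downstream of fibroblast growth factors (0.73, edgeR adjusted p = 0.922).

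Relatives of the members differed in their fit to this pattern. *Thbs3* measured 1.54, 1.39, 2.80 and 1.81 CPM in WT and 2.12, 2.83, 2.66 and 2.46 CPM in C2-/-, with r = 0.879 to *Tnmd*, and *Thbs2* had r = 0.799. *Thbs1* had r = −0.062 and was high in WT replicates 2 and 4 and C2-/- replicate 2 (15.1, 26.7 and 23.8 CPM). *Cilp*, the relative of *Cilp2*, differed by 0.81 on the log2 scale (standard error 0.32, edgeR adjusted p = 0.882). *Cnmd*, chondromodulin, the cartilage relative of *Tnmd*, was at 0 counts in 6 of 8 mice and reached at most 0.208 CPM. *Layn*, a lectin related to *Chodl*, measured 1.04 ± 0.369 CPM in WT and 1.20 CPM in C2-/- (SD, n = 4, edgeR adjusted p = 0.987).

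Several members are also made in cartilage. Of 16 cartilage and fibrocartilage genes 5 passed the filter, and the structural cartilage genes *Acan*, *Col2a1* and *Hapln1* did not exceed 0.326 CPM in any mouse. *Sox9*, a transcription factor of cartilage and of tendon attachments, measured 2.24, 20.4, 4.59 and 4.49 CPM in WT and 2.99, 4.57, 3.83 and 4.16 CPM in C2-/- (edgeR adjusted p = 0.968). It was high in WT replicate 2 alone, a mouse with little *Tnmd*, and *Cytl1* lay between 3.59 and 7.44 CPM. *Col9a1* and *Cytl1* had a lower mean in C2-/- (log2 fold change −1.44 and −0.45, edgeR adjusted p = 0.615 and 0.919). *Matn4* and *Runx2* had a higher mean (log2 fold change 0.51 and 0.34, edgeR adjusted p = 0.976 and 0.970). Their r with *Tnmd* was 0.814 and 0.787, whereas *Sox9*, *Col9a1* and *Cytl1* had −0.451, −0.539 and −0.709. Summed levels of this list spanned 11.4 to 28.3 CPM in WT and 8.29 to 11.7 CPM in C2-/-. Of the 7 bone genes 2 were tested, and of the 5 tested genes of synovial and sheath lining 3 were higher and 2 lower, with 0 at an unadjusted p under 0.05 in edgeR, although *Prg4* marks the same cells.

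Other cell types also varied among the mice, and their part in the members' levels was not tested. Of all tested genes, 45.8% had a higher mean in C2-/-, 5.29% an unadjusted p under 0.05 in edgeR, and 3.38% no overlap between genotypes. All 9 genes of fibro-adipogenic progenitors, the resident fibroblasts of muscle, were higher in C2-/-, with *Dpt* and *Cd248* at this p. The list summed to 138 to 170 CPM in WT and 197 to 209 CPM in C2-/-. Of the 6 adipocyte genes 5 were higher, with summed levels of 89.6 to 133 CPM in WT and 95.3 to 146 CPM in C2-/-. A higher mean in C2-/- was found for 7 of 7 macrophage, 2 of 7 endothelial, 1 of 7 Schwann cell, 5 of 6 mural, 3 of 5 satellite cell, 3 of 10 fast fibre and 0 of 8 immediate early genes, and of these *Cspg4*, a pericyte proteoglycan, was the only one with an unadjusted p under 0.05 in edgeR. Relative to the mean of the mice on the log2 scale, the blood list stood at 1.4, 1.9, −1.8 and −1.6 in WT and 0.91, −1.0, −0.17 and 0.52 in C2-/-, with *Hba-a1* at 4280 and 6190 CPM in WT replicates 1 and 2 and 475 and 768 CPM in WT replicates 3 and 4. The mice lowest in the members' mean, WT replicates 1 and 2 and C2-/- replicate 1, stood highest for the blood list on this scale. *Hba-a1* alone measured 3740, 894, 1460 and 5830 CPM in C2-/- replicates 1 to 4. For this gene, C2-/- replicate 4, where the members' mean was also high (1.10), was above WT replicate 1 and did not follow. *Fos*, an immediate early gene, was high in WT replicates 2 and 4 and C2-/- replicate 2, a set of mice that spans the whole range of *Tnmd*.

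When the log2 CPM of *Tnmd* was added to the edgeR fit as a covariate, the genotype difference of tendon collagens shrank. Of 9 chains, 2 had an unadjusted p under 0.05 (*Col5a2* and *Col5a3*) in place of 5 without it, and the median log2 fold change was 0.49 in place of 0.93. For *Col1a1*, the main chain of tendon collagen, the log2 fold change was 1.30 (standard error 0.35) without and 0.73 (standard error 0.34, edgeR adjusted p = 0.703) with the covariate. *Col12a1* went from 1.32 to −0.45 and *Col14a1* from 0.65 to −0.38, whereas *Col5a2* was at 0.77 (standard error 0.28) and *Col5a3* was larger with 0.73 than without with 0.24. For the 19 tenocyte matrix genes, the count at this p was 0 in place of 8. With the mean of the tested members as the covariate, 3 collagens had a p under 0.05, all higher in C2-/-, and so did 1 tenocyte matrix gene, which was lower. Across all tested genes the share was 7.2% with *Tnmd* and 5.68% with the members' mean, against 5.29% without. Since the level of *Tnmd* itself was higher in C2-/- and rests on few reads, genotype and tendon level cannot be fully told apart in 8 mice.

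**Figure D5:**
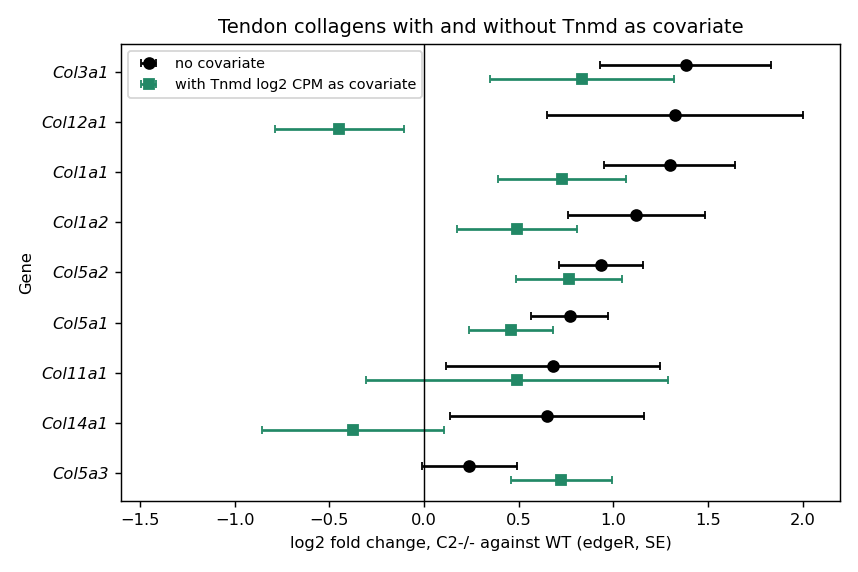
Log2 fold change of C2-/- against WT for 9 tendon collagen genes, with the standard error, without a covariate (black) and with log2 CPM of Tnmd as a covariate (green). Col1a1 lies at 1.30 and 0.73, and Col12a1 passes from 1.32 to −0.45.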

How the data were processed

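TA muscle RNA of 4 WT and 4 C2-/- mice was enriched for mRNA and sequenced, with one library per mouse, and groups were taken from the labels. The authors deposited a table of expected counts per gene, not normalized, for protein-coding genes. The methods name HISAT and GRCm38.p6 for alignment and featureCounts for counting, and the submitters' notes also name Bowtie2 and DESeq2. Use of strand is not given in the sources used here. The authors' own averages, fold changes, p-values and q-values from their DESeq2 comparison were not used, nor were 16 columns of other values per mouse. Between 5.5% and 6.53% of a mouse's values were not whole, and they were rounded.

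Gene IDs and counts were present in 16686 of 16687 rows, and 25 symbols were restored from IDs. Library totals lay between 25425993 and 29747692 counts, so that 3 counts, taken as the smallest level shown (counting error only), are 0.104 to 0.116 CPM. Genotypes were compared with edgeR 4.0.16 (quasi-likelihood test, TMM factors of 0.929 to 1.03, default filter, 12542 genes, Benjamini-Hochberg adjustment over all of them) in R 4.3.3. The methods' threshold, 1.5-fold with an adjusted p under 0.05, was used, and the standard error is the log2 fold change over the root of F. Alternatives were limma 3.58.1 (voom), DESeq2 1.42.0, RLE size factors, other filters, a replicate block and leaving out each mouse. Tests were checked on simulated counts. Correlations used log2 CPM with a prior count of 2 in Python 3.11.15 with numpy 2.4.6 and scipy 1.17.1. Exact permutation tests were two-sided over all orders of the 8 mice, without regard to genotype, and r within genotypes was not tested. Levels per length used the longest GENCODE vM21 transcript.

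The 9 members and the marker lists were chosen with earlier results of these data known. Named genes are the members, *Mybpc2*, up to 2 genes per direction of each list by p, the 5 genes nearest to *Tnmd*, and family relatives. The other genes named (among them *Fmod*, *Col22a1*, *Itga7*, *Kera*, *Abi3bp*, *Col1a1*, *Col1a2*, *Col3a1*, *Col5a3*, *Col14a1*, *Sox9*, *Acan*, *Col2a1*, *Hapln1*, *Bop1*, *Acsf2*, *Tpr* and *Fos*) were chosen after their values were seen.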

Additional observations from a re-analysis of the deposited data

Results flagged for a closer look

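In groups of 4 mice, a highest or lowest mouse was singled out when its gap to the next took more of the group's range than Dixon's critical value (95% level). This was checked for the 9 members and *Mybpc2* in both genotypes, 20 groups, of which chance singles out about 1 in 20. *Prg4* in WT was highest in replicate 3, with 29.7 CPM, and the gap to the next WT mouse took 0.875 of the range. *Mybpc2* in C2-/- was highest in replicate 3, with 38.3 CPM, where the gap took 0.985 of the range. That C2-/- mouse was also the one with 161 CPM of *Prg4*, although *Prg4* in C2-/- did not pass the critical value. Neither pattern was tested further.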

How the results depend on the processing

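The count of 0 members called held under every alternative run, and edgeR, limma-voom and DESeq2 adjusted p-values of members ranged from 0.336 up to 0.9999. All genes called between genotypes numbered 4, and 38 with DESeq2's Wald test, and 4 to 7 when each mouse was left out, with 7 without WT replicate 2. With at least 10 counts in every mouse, 5 members were left to test, of which 1 had an unadjusted p under 0.05 and 4 were higher in C2-/-. When each mouse was left out, the members with an unadjusted p under 0.05 numbered 1 to 6 and those higher 7 to 8, while all genes at this p numbered 506 to 983. *Scx* turned to 0.0027 without WT replicate 1 and 0.026 without C2-/- replicate 4, between −0.34 and 0.03 in all such fits. Leave-one-out log2 fold changes ranged from 1.12 to 1.87 for *Tnmd*, 0.97 to 2.37 for *Chad*, 0.70 to 1.94 for *Comp* and 1.20 to 2.95 for *Prg4*. Tendon collagens with p under 0.05 numbered 5 with no covariate and 2 with *Tnmd*. Single mice set these ranges by construction. For the other changes the cause was not tested.

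Replicate numbers 1 to 4 are shared by both genotypes. Same-numbered mice correlated at 0.267, 0.042, −0.05 and 0.02 in their deviations from the group means. Mice 1 alone correlated best with each other. Such values cannot settle whether the numbers pair the mice, and the main fit was unpaired. With the replicate block, 4 genes were called, and 0, 3 and 7 members were called, had an unadjusted p under 0.05 and were higher. The block gave a smaller standard error for *Prg4* (0.34 against 0.73), *Scx* (0.19 against 0.27), *Cilp2*, *Comp* and *Chodl*. For *Tnmd*, *Thbs4* and *Chad* it was slightly larger. Depth limits *Mkx*, *Tnmd* and *Cilp2*, with 4, 6 and 6 counts in their lowest mouse. Labels do not say that mice were littermates or processed on the same day.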
